A study of Caenorhabditis elegans with 2 samples.

Results

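The *str* genes encode chemoreceptors of *Caenorhabditis elegans*, and all protein-coding genes whose name starts with *str-* in the Ensembl annotation of assembly WBcel235 were taken, which gave 193 of 19985 protein-coding genes. The data are ChIP-seq peak lists for the zinc finger transcription factor EGL-43, the homolog of mammalian EVI1. There was 1 group, with 2 biological replicates from separately grown populations. The larvae, labelled wild type otherwise, were of the *egl-43::gfp* strain, in which *gfp* sits at the 3′ end of the endogenous gene. The study lists an allele *zh136[egl-43::gfp]*, but its ChIP methods name neither the allele nor any other transgene of the strain. The larvae hatched at 20°C and were kept for 27 hours at 25°C until the L3 stage. Chromatin was fixed with formaldehyde and EGS and precipitated with the anti-GFP antibody ab290. No input or untagged control was used here, and chromatin came from whole larvae, so that a peak does not show in which cells EGL-43 was bound.

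STR receptors are G protein-coupled receptors that span the membrane and are mostly expressed in sensory neurons of the head and tail, where single neurons hold many different receptors. Binding of an odour or another chemical activates a G protein, which acts on guanylyl cyclases and cyclic nucleotide-gated channels or on TRPV channels. The family grew by tandem duplication, mainly on chromosome V. EGL-43 is made in cells of the somatic gonad and in some head and tail neurons at the L3 stage.

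Of the 193 genes, 157 (81.3%) lay on chromosome V, 27 on IV, 5 on X, 2 on III and 1 each on I and II. Their median length was 1604 bp, against 2035 bp for the other protein-coding genes, and their longest transcripts had 2 to 9 exons. A neighbouring protein-coding gene was another *str* gene for 99 of them and a chemoreceptor of any family for 130. Ensembl gives 3 of the names (*str-257*, *str-258* and *str-267*) to 2 genes each, so that the 193 genes carry 190 names.

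Only 5 of the 193 genes (2.59%, 95% Clopper-Pearson interval 0.846 to 5.94%) had an EGL-43 region found in both replicates. These were *str-12*, *str-222*, *str-114*, *str-267* and *str-119*, all on chromosome V, with 1 region each. A region is called shared when peaks of the 2 lists overlap by at least 1 bp, and a gene holds it when it touches the body or the 500 bp upstream. Among all protein-coding genes, 18.3% held a shared region. The list of replicate 1 had peaks at 5 *str* genes (2.59%), against 19.7% of all protein-coding genes, and that of replicate 2 at 7 (3.63%, interval 1.47 to 7.33%), against 23.8%. The additional genes of replicate 2 were *str-135* and *str-171*, and the remaining 186 *str* genes had no peak in either list.

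The bases around the summits of the 5 shared regions are shown because these are the regions at *str* genes that both lists hold. Each line gives the 101 bp centred on the stronger of the 2 summits, on the plus strand of chromosome V (WBcel235, RefSeq genome). The capitals mark AGATGAG, the site of the C-terminal zinc fingers of mammalian EVI1, on either strand, in an exact copy or with 1 base different. Allowing 1 different base was decided after the sequences had been seen.
str-12, chrV:15610523-15610623: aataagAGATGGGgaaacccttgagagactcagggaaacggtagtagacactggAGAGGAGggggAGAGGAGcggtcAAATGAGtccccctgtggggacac
str-222, chrV:1638908-1639008: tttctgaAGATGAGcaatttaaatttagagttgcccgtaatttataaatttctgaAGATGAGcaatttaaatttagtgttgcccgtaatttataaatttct
str-114, chrV:3649395-3649495: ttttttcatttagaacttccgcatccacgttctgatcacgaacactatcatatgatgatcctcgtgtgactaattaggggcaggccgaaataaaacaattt
str-267, chrV:2560967-2561067: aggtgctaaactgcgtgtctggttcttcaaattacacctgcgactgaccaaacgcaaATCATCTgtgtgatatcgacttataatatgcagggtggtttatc
str-119, chrV:2428211-2428311: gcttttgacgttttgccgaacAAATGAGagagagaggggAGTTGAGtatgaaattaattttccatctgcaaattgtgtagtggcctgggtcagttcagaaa

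Exact copies of AGATGAG occurred in the window of *str-222* alone, and 4.26% of the windows of all 7259 shared regions held one. With 1 base allowed to differ, 4 of the 5 *str* windows had a match, against 43.0% of all shared windows and 22.6% of windows centred 500 bp to either side of a summit. ACAAGATA, the site of the N-terminal zinc fingers of EVI1, and TGACTCA, the AP-1 site, were in none of the 5 windows, and were in 0.276% and 3.43% of all shared windows. With 5 windows, 3 of them in repeated sequence, these counts are a description.

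*str-12* had the strongest region of the family. The gene lies from 15610890 to 15612591 on the plus strand, and its region (15610385 to 15610719) was enriched 6.01-fold in replicate 1 and 7.68-fold in replicate 2. Fold enrichment here is the signal at the summit over the background estimated by the peak caller. The summits were 3 bp apart, with that of replicate 2 lying 317 bp upstream of the gene, and the −log10 q-values reached 29.8 in replicate 1 and 47.9 in replicate 2. By the lower of the 2 values it ranked 1244 of 7259 shared regions, within the highest 17.1%. The start of *fbxa-153*, an F-box gene transcribed in the opposite direction, was closer, at 189 bp, and the region was assigned to both genes. The lists do not tell apart which of the 2 genes it is tied to.

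*str-114* (3649773 to 3651457, plus strand) had a region from 3649373 to 3649626, enriched 2.96-fold in replicate 1 and 4.05-fold in replicate 2. Its summits were 12 bp apart, and that of replicate 2 lay 328 bp upstream of the gene. No other gene start was closer than 1483 bp. The region held 1 AP-1 site, whose first base was 129 bp from the summit of replicate 1 and 141 bp from that of replicate 2 and which stands in capitals in the 31 bp from 3649574 to 3649604 (plus strand, written there as the reverse complement of TGACTCA).
str-114, chrV:3649574-3649604: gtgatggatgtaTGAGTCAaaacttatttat
The site of *str-114* lay in the replicate 2 peak only, beyond the end of the replicate 1 peak at 3649547. Such a site occurred in 9.26% of all shared regions. *str-12* and *str-114* were the only genes of the 5 with a region free of repeated sequence, measured as the percentage of its 36-base words found at another place of the genome as well.

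**Figure D1:**
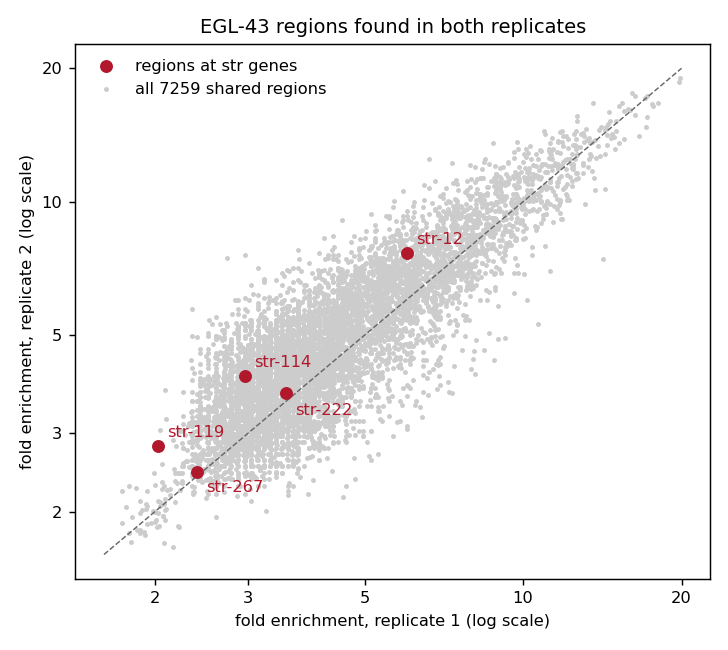
Fold enrichment in replicate 1 (x axis) and replicate 2 (y axis), both on log scales, for the 5 shared regions at *str* genes (red) and all 7259 shared regions (grey). The dashed line marks equal values. The region of *str-12*, at 6.01 and 7.68, stands above the other 4, which lie between 2.03 and 4.05.

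The other 3 regions lay in repeated sequence. *str-222* (1636159 to 1639281, plus strand) held a broad region of 1191 bp from 1637912 to 1639102, inside intron 5, which extends over 1381 bp (1637752 to 1639132). It was enriched 3.55-fold in replicate 1 and 3.69-fold in replicate 2, near the middle of all shared regions (rank 3966 of 7259). Its −log10 q-value was 34.9 in replicate 1 and 35.9 in replicate 2, above that of *str-12* in replicate 1 and below it in replicate 2.

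The region consists largely of a 48 bp unit in tandem, and 93.3% of the bases of the region equalled the base 48 bp further on. AGATGAG stood 14 times in the region, each time on the plus strand, and all 13 steps between neighbouring copies were whole multiples of 48 bp (48 to 336 bp). Of the shared regions, 837 held the word at all, 15 held it at least 3 times and 3 at least 14 times, this one included. The repeat is shown by 5 of its units, from 1638812 to 1639051 on the plus strand, with the word in capitals.
str-222 intron 5, chrV:1638812-1639051: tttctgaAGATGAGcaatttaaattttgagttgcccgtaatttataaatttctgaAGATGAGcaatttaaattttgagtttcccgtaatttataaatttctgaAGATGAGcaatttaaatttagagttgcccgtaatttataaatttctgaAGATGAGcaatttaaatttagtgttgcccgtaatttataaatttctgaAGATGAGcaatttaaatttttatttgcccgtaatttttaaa
Of the 36-base words of the region, 78.7% were repeated elsewhere, and 3.17% of all shared regions were at least as repeated. The part of the repeated sequence in this peak was not tested.

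**Figure D2:**
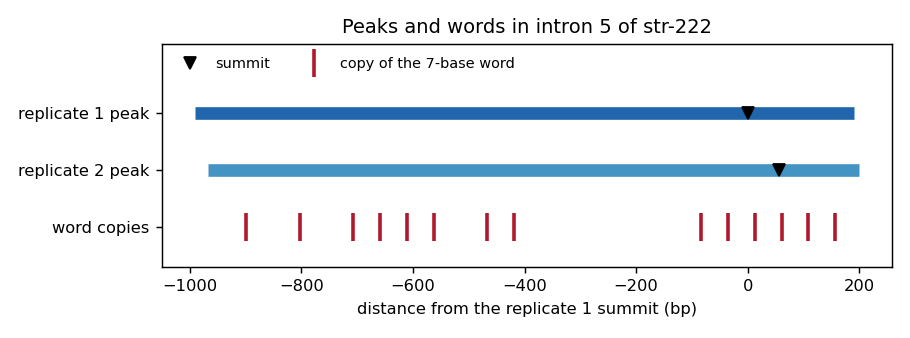
Extent of the replicate 1 and replicate 2 peaks (bars), their summits (triangles) and the 14 copies of the 7-base word (ticks) in intron 5 of *str-222*, by distance from the replicate 1 summit in bp. Both peaks cover all 14 copies, and both summits lie among the 6 copies at the right, from -83 to 157 bp.

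*str-119* and *str-267* belong to a duplicated segment of chromosome V. Positions 2381222 to 2454557 and 2489501 to 2562836 are 2 copies of 73336 bp that differ at 6 bases, with 17 protein-coding genes in each and 9 *str* genes in all. Every 36-base word of these 9 genes and their upstream 500 bp occurred more than once. Reads from such a segment fit both copies, and which copy they came from cannot be told apart. How the aligner's choice between copies bears on the peaks was not tested.

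*str-119* (2426479 to 2428124, minus strand) had the weakest region, from 2428034 to 2428353, enriched 2.03-fold in replicate 1 and 2.81-fold in replicate 2, rank 7216 of 7259. Its summits were 71 bp apart, and that of replicate 2 lay 137 bp upstream of the gene. The counterpart of *str-119* in the other copy is the protein-coding gene Y45G12C.10, which does not carry a *str* name and was therefore not counted among the *str* genes. It had a shared region at the matching place, from 2536356 to 2536609, enriched 2.20-fold in replicate 1 and 2.32-fold in replicate 2. Peaks at this pair were thus listed in both copies and both replicates, at the low end of the enrichment range.

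*str-267* (2557797 to 2560739, minus strand) had a region from 2560916 to 2561158 enriched 2.40-fold in replicate 1 and 2.45-fold in replicate 2, rank 7062. The summit of replicate 2 lay 278 bp upstream of its start and 673 bp from that of *gst-10*, a glutathione S-transferase gene. The identical 243 bp next to the other *str-267*, at 2452637 to 2452879, carried no peak of either list. The 2 copies of *str-257* and of *str-258*, together with *str-265* and *str-76*, had none either.

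In replicate 2 alone, *str-135* (8279375 to 8280870, minus strand) had a peak from 8281259 to 8281408 enriched 2.62-fold, whose summit lay 480 bp upstream. *str-171* (15130384 to 15132523, minus strand) had one in intron 3, from 15130686 to 15130855, enriched 3.54-fold, between the values of *str-119* (2.81) and *str-222* (3.69) in that replicate. Neither overlapped repeated words, and neither had a peak in replicate 1.

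All 5 shared regions were higher in replicate 2, as were 67.4% of all shared regions. Their log2 ratios of replicate 2 to replicate 1 were between 0.03 and 0.47. None lay outside -0.49 to 0.75, the range of the middle 95% of all shared regions. The median of the lower fold enrichment was 2.96 (range 2.03 to 6.01) for the 5 regions, against 3.69 (interquartile range 3.02 to 5.14) for all shared regions and 3.59 for the 1080 on chromosome V. In 4 of the 5 regions the summit was in the 500 bp upstream of the gene, and in *str-222* it was intronic.

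Because a long gene meets more peaks and chromosomes differ in their number of peaks, each *str* gene was compared with 50 protein-coding genes of the same chromosome, outside the family, whose lengths came nearest to its own. A shared region was held by 2.59% of the *str* genes (interval 0.846 to 5.94%), against 9.18% of the matched genes on average, a difference of -6.59 percentage points. The 5 *str* genes stand beside 17.7 that the share of the matched genes would give. Neighbouring genes in an array are not independent and the interval covers counting error only, so the difference is given without a test. The distance in length to the matched genes had a median of 8 bp. Chemoreceptor genes of other families, by name, filled 24.1% of the matched places. Of these places 2.02% held a shared region, against 11.5% of those filled by other genes.

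The share was lower than that of the matched genes on chromosomes V and IV, in both parts of the chromosomes and in both length classes. On chromosome V, 5 of 157 genes (3.18%, interval 1.04 to 7.28%) held a region, against 8.36% of their matched genes. On chromosome IV it was 0 of 27 genes (interval 0 to 12.8%), against 12.2%, and here the interval includes the value of the matched genes. In the outer 25% at each end of the chromosomes, where 109 of the genes lie, 4 held a region (3.67%, interval 1.01 to 9.13%), against 9.23%. In the middle 50%, 1 of 84 did (1.19%, interval 0.0301 to 6.46%), against 9.12%.

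By length, all 5 genes were longer than the family's median, which makes 5 of 96 (5.21%, interval 1.71 to 11.7%), against 11.6% of the matched genes, where the interval just includes that value. None of the 97 *str* genes of up to 1604 bp held a region (interval 0 to 3.73%), against 6.74% of theirs. The longest, *str-81* (chromosome V, 19225521 to 19251083), had no peak of either list in its 25563 bp, while 30 of its 50 matched genes (60%) held a shared region, although genes of that length are few and some of the 50 differed from it by up to 10711 bp.

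**Figure D3:**
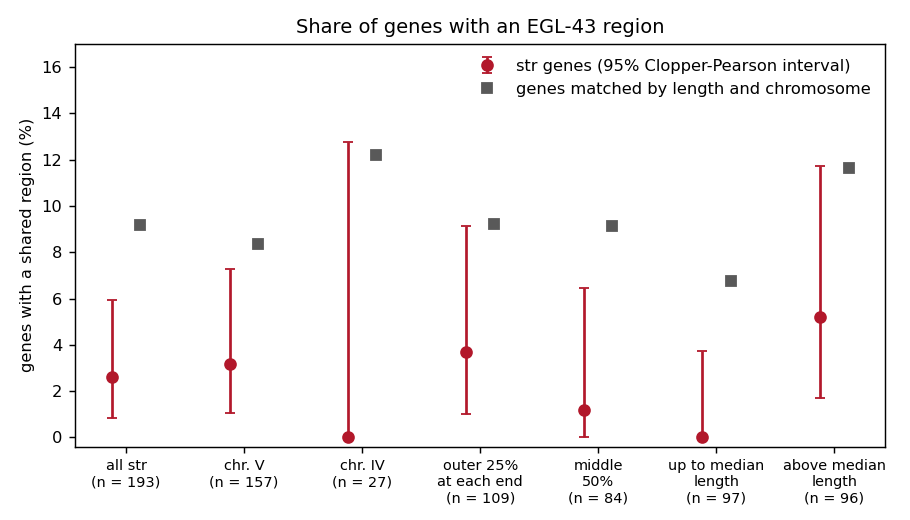
Percentage of genes with a shared region (y axis) for the *str* genes (red, with 95% Clopper-Pearson intervals) and for the protein-coding genes matched to them by length and chromosome (grey squares), for the whole family and for parts of it. The *str* share is below that of the matched genes in each part, for example 3.18% against 8.36% on chromosome V.

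The typical *str* gene held as little repeated sequence as its matched genes, with a median of 0% of repeated 36-base words in both sets and upper quartiles of 2.39% in the *str* genes and 2.34% in the matched genes. The sets differed among the most repeated genes. Over 50% of the 36-base words were repeated in 15 *str* genes (7.77%), against 2.59% of the matched genes, and 9 of the 15 were those of the duplicated segment. Of these 15 genes, 2 held a shared region. Of the 250 matched entries with over 50%, 22 did, a smaller share than 2 of 15. A matched gene is entered once for each *str* gene it was matched to. Of the 18 *str* genes with 10 to 50%, 1 held a region, and no matched share is given for this class. Among the 160 *str* genes with at most 10%, 2 held a region (1.25%, interval 0.152 to 4.44%), against 8.70% of matched genes under the same limit. The median GC content was 34.6% in the *str* genes and 35.3% in the matched genes. The part of base composition in the lower share was not tested.

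The *str* genes also lay farther from the nearest shared region. The distance from the body or upstream 500 bp had a median of 16419 bp (interquartile range 6262 to 36360 bp), against 10471 bp (3061 to 27374 bp) for the matched genes. Within 10 kb of a region were 36.3% of the *str* genes, against 48.2% of the matched genes, and 32 *str* genes (16.6%) were more than 50 kb away, against 11.2%. The most distant were in arrays on the right part of chromosome V, with *str-106* (16180650 to 16181861) at 139104 bp and *str-77*, *str-92*, *str-93* and *str-89* between 129570 and 136527 bp. Per 100 kb, the bodies and upstream stretches of the family held 1.07 shared regions, against 5.16 on chromosome V and 7.24 in the nuclear genome. The values for chromosome V and the genome cover all sequence, also that between genes. No such density was computed for the matched genes, so these values do not compare like sequence.

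**Figure D4:**
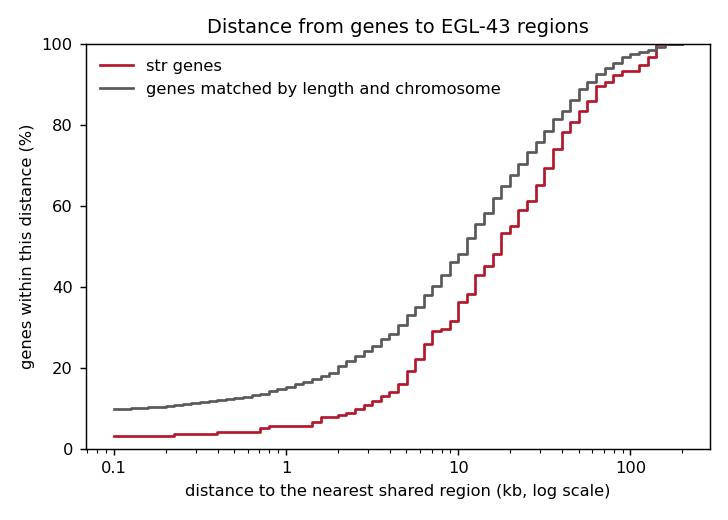
Cumulative percentage of genes (y axis) within a given distance of the nearest shared region (x axis, kb, log scale) for the *str* genes (red) and for the genes matched by length and chromosome (grey). The red line lies below the grey one up to 100 kb, with medians of 16419 and 10471 bp.

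The genes between and beside the *str* genes were counted too. Of the 196 non-chemoreceptor genes next to a *str* gene, 18 held a shared region (9.18%, interval 5.53 to 14.1%), against 13.6% of non-chemoreceptor genes matched to them by length and chromosome, a value inside the interval.

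A few genes just missed the rule. The shared region closest to a *str* gene without one began 3 bp beyond the end of *str-56* (15872573 to 15873770, plus strand), enriched 3.60-fold in replicate 1 and 4.30-fold in replicate 2, and its summit was 10 bp from the start of the snoRNA gene T06C12.16. A region 217 bp beyond *str-94* reached 4.91 and 8.24. The region 360 bp beyond *str-170* on chromosome IV (4880675 to 4881019) was stronger than any at a *str* gene, at 9.28 and 9.16 (rank 318), with its summit 26 bp from the start of the snoRNA gene T08B6.64. All 3 lay downstream of the *str* gene. With 2000 bp upstream in place of 500 bp, the only gene gained was *str-221*, through the repeat in *str-222* next to it.

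*str-1*, *str-2* and *str-3*, whose promoters are used as markers of the AWB, AWC and ASI sensory neurons, had no peak in either list. Counted from their bodies or upstream 500 bp, the nearest shared regions were 4780 bp from *str-1* (fold enrichment 2.32 in replicate 1 and 2.52 in replicate 2), 4322 bp from *str-2* (3.05 and 4.56) and 9127 bp from *str-3* (2.70 and 2.77).

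Other chemoreceptor families were low as well. In 20 further families with 1110 genes, named by the start of the gene name, 32 held a shared region (2.88%, interval 1.98 to 4.05%), against 11.3% of non-chemoreceptor genes matched by length and chromosome. The 2.59% of the *str* genes lay inside that interval, and their own matched share outside all chemoreceptor families was 10.7%. In the closest relatives, the *srd*, *srh*, *sri* and *srj* families of the STR superfamily, the shares were 2.99% (2 of 67), 3.18% (7 of 220), 3.28% (2 of 61) and 2.56% (1 of 39). The 2 *srd* genes are the copies of *srd-71* in the duplicated segment. Of the 20 families, 17 were below the share of length-matched genes without the name of the family, and 6 had no region at all. The exceptions were *srxa* (2 of 17), *srr* (3 of 9) and the single gene *sro-1*.

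**Figure D5:**
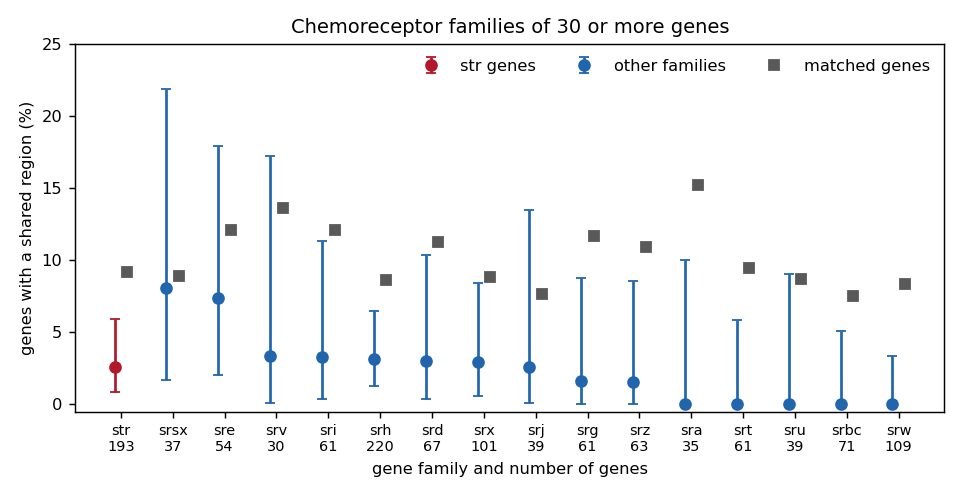
Percentage of genes with a shared region (y axis) in the *str* family (red) and the other chemoreceptor families of at least 30 genes (blue), with 95% Clopper-Pearson intervals and the share of matched genes of each (grey squares). Each family lies below its matched genes, with *str* at 2.59% against 9.18%.

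A list of olfactory signalling genes was counted for comparison. Of 17 genes, 16 of signalling, desensitisation and receptor trafficking and the receptor gene *odr-10*, 6 held a shared region (35.3%), against a mean of 21.4% among the 50 protein-coding genes closest to each in length on its chromosome. These were *arr-1* (arrestin, 5.23 in replicate 1 and 6.33 in replicate 2), *odr-4* and *odr-8* (receptor transport to cilia, 3.05 and 3.54, and 2.87 and 3.97), *ocr-2* (a TRPV channel subunit, 2.53 and 3.63), *gpa-13* (a G protein α subunit, 2.44 and 3.71) and *grk-2* (a receptor kinase, 2.37 and 4.10). The G protein gene *odr-3*, the cyclase genes *odr-1* and *daf-11*, the channel genes *tax-2*, *tax-4* and *osm-9*, *gpa-2*, *gpa-3*, *gpa-5*, *gpa-6* and *odr-10*, which encodes the diacetyl receptor, had none. These genes are few, and most of the 6 regions lay in the lower part of the enrichment range. The regions of *odr-8*, *ocr-2* and *grk-2* lay outside the gene body, in the upstream part. Whether another gene start was closer to the 6 regions is not given here. No interval was computed for the 35.3%, and its difference from the matched share was not tested.

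In the 500 bp upstream of the genes, AGATGAG occurred at 8 *str* genes (4.15%), against 5.98% of the other protein-coding genes, ACAAGATA at 2 (1.04%), against 2.06%, and TGACTCA at 14 (7.25%), against 5.43%, each counted on both strands. A match is a stretch of letters and not a binding site.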

How the data were processed

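The authors used BWA and SAMtools to place the ChIP-seq reads on ce11 and ran MACS2 (version not given in the sources used here) on each replicate at a stated false discovery rate of 0.05. The deposited lists give a fold enrichment (a ratio over the estimated background), −log10 of the p-value and q-value, the summit and a score, which was not used. They hold 8394 and 10925 peaks, with highest q-values of 0.00395 and 0.00688. They carry no read totals, so the depth is unknown. After peak calling, the authors also split regions with several peaks and applied a threshold on normalized coverage. They discarded peaks in a list of excluded genome regions as well. None of these later steps was applied here, so the shared regions are not the final peak set of the study.

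Positions are counted from 1. ce11 equals WBcel235, and all peaks ended within its chromosomes. Overlapping peaks were merged (11650 regions, of which 7259 shared). The matched share is the mean over *str* genes of the share among 50 genes. Intron numbers refer to the longest transcript of a gene. Intervals are Clopper-Pearson at 95%. The family, the lists and the comparisons were chosen with earlier results of these data known. The genes named were fixed by rule: up to 12 *str* genes with the strongest shared regions, up to 3 with the strongest peaks of a single list, *str-1*, *str-2*, *str-3*, and any with a replicate ratio outside the middle 95%. The others named, such as *str-81* and *str-56*, were chosen after their values were seen. Merging and assignment were tested on simulated data, where 0 of 1000 genes differed from a direct count. Alternatives were other q-values, overlaps, territories and matching rules, and each replicate alone. Python 3.11.15, numpy 2.4.6, scipy 1.17.1 and matplotlib 3.10.9 were used.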

Additional observations from a re-analysis of the deposited data

How the results depend on the processing

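The share of the *str* genes was below that of the matched genes under all 15 alternatives, with differences of -11.02 to -4.54 percentage points. Most of the 56 alternative values (46) moved by less than their counting error or replicate spread. A q-value limit of 0.01 removed no peak, because the highest were 0.00395 and 0.00688, so its values could not move. Leaving out the repeat in *str-222* took a gene from the *str* side only and could only widen the difference. Both are counted among the 15 and the 46, and their outcome was fixed in advance. With the body only, 2 *str* genes and 2 regions were left (*str-119* and *str-222*), against 5.58% of matched genes. With 2000 bp upstream the matched share was 14.1% and the difference -11.02 points. When the strongest summit had to lie in the gene or its 500 bp upstream, the matched share was 8.04%. It was 10.7% outside all chemoreceptor families and 8.06% within the same part of the chromosome. Without replicate 1 or without replicate 2, the number of *str* genes was 5 to 7, the matched share 10.02 to 13.2%, the difference -9.54 to -7.43 points, the number of regions 5 to 7 and the median fold enrichment 2.96 to 3.54. A q-value of at most 1e-05 removed *str-119*. Leaving out the repeat in *str-222* (4 genes) and the limit of 10% repeated words (-7.45 points) were chosen after seeing the data. No paired analysis was possible because there was 1 group. The unknown depth and 2 replicates limit what a missing peak shows, and how weak or how rare a binding event the lists could hold was not tested.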

Other observations

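The array in *str-222* was compared with other dense runs of AGATGAG. In the genome, 10 runs held at least 8 copies on either strand with no more than 400 bp between neighbours, and 3 of them overlapped a shared region. These were the run of *str-222* (1637907 to 1639451, 16 copies, 15 of them in intron 5), which extends beyond the end of the gene at 1639281, one on chromosome IV (12891407 to 12891797, 9 copies) enriched 5.99-fold in replicate 1 and 6.77-fold in replicate 2, and one on X (14384681 to 14390046, 95 copies) enriched 3.43-fold and 4.76-fold. In all 3 the commonest step was 48 bp. The other 7 runs, of 8 to 33 copies, had no peak in either list, and they included 2 with a step of 48 bp, of which the one on IV (5465016 to 5467133) had 33 copies. The definition of a run was set after the array had been seen.

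Both copies of the duplicated segment that holds *str-119* and *str-267* carried further peaks. The copy from 2381222 to 2454557 touched 3 shared regions and the other 5. Shared regions stood at matching places of both copies at *srd-71*, at *str-119* and Y45G12C.10, and at Y45G12C.6, whereas the regions at *str-267* and at 2538470 to 2538762 had no peak of either list at the counterpart.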
